A study of Sus scrofa with 16 samples.

Results

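Genes of the mitochondrial respiratory chain, its carriers, its protein import machinery and its ribosome were followed through the elongation of the pig conceptus, the embryo with its extraembryonic membranes. They were taken by symbol, by a rule set with earlier results of these data known. This gave 29 of the 1015 probes on the membrane, naming 28 of the 638 genes that a probe with a single symbol names. Every one of the 28 was tested, since no filter on low values was used. The 16 arrays carried amplified RNA of pig embryos. The RNA was made radioactive with phosphorus-32 and bound to a macroarray, on which amplified cDNA clones are spotted on a membrane. There were 4 stages with 4 arrays each. Small spherical embryos measured 1 to 5 mm and large spherical ones 6 to 11 mm, tubular embryos 13 to 45 mm, and filamentous embryos over 100 mm. The labels name no treatment, genotype or breed, and they do not say whether arrays of one stage hold separate animals or litters, so a p-value here reflects just the spread among these 16 samples, which may be technical. Embryo RNA mixes the cell types it came from, so fewer cells of a type and less RNA per cell cannot be told apart.

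Mitochondria make most of a cell's ATP by passing electrons from NADH and succinate along complexes I to IV and letting the resulting proton gradient drive complex V, the ATP synthase. The citric acid cycle supplies those electrons, adenine nucleotide and phosphate carriers move ATP, ADP and phosphate across the inner membrane, and the TOM and TIM complexes import the proteins that nuclear genes encode. A separate ribosome inside the organelle translates the few proteins of mitochondrial DNA. In trophoblast and other steroid-making tissue, mitochondria are also the site of the first step from cholesterol to steroid hormones.

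By role, the members were 1 subunit each of complex I (NDUFA8), complex II (SDHD) and complex III (UQCR10), 5 of the ATP synthase, 5 of the acid cycle and its dehydrogenases, 5 channels and carriers, 5 of protein import and 5 of the mitochondrial ribosome. No probe with a single symbol matched the symbols searched for complex IV (COX), genes of mitochondrial DNA (MT-) or the electron transfer flavoproteins (ETF), so these were not analysed. Array medians lay between 62.8 and 71.4 (intensity), and none of the members reached the maximum of any array, where values can be saturated. SUCLG1 was among the dimmest probes (0.120 to 10.2 over the 16 arrays). Spots differ in length and labelling. Apart from probes called dim, brighter or high, and sums over marker lists, levels of different probes are not compared. The number of arrays limits the precision.

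The first question was whether any of these genes differed between the 4 stages. By the limma F test 0 of the 28 members had a Benjamini-Hochberg adjusted p below 0.05, where 0.394% of all 1014 probes did, and 2, DLD and MRPS10, had an unadjusted p below 0.05, where 10.4% of all probes did. The smallest adjusted p were those of DLD (0.158), MRPS10 (0.366) and SLC25A5 (0.552). The 6 contrasts between 2 stages called 0 members each. Called probes made up 0.394% of all probes between small and large spherical arrays, 0.394% between small spherical and tubular and 0.888% between small spherical and filamentous ones, and 0% in the contrasts that leave out the small spherical stage. Members with an unadjusted p below 0.05 numbered 2, 1 and 0 in the 3 adjacent steps (all probes, 9.37%, 3.25% and 3.35%), and 2 from small spherical to filamentous arrays (all probes, 14.6%). They numbered 1 from small spherical to tubular arrays (all probes, 11.4%) and 2 from large spherical to filamentous ones (all probes, 6.02%).

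As a group the members stayed close to the bulk of the membrane. From small to large spherical arrays 13 of the 28 differences were above 0 (all probes, 45.9%), and their median log2 difference was -0.072 against -0.027 over all probes. The next step, to tubular arrays, had 12 above 0 (all probes, 42%) and a median of -0.033 (all probes, -0.045), and the last, to filamentous arrays, had 17 above 0 (all probes, 54.1%) and a median of 0.042 (all probes, 0.022). Across the whole interval 9 were above 0 (all probes, 45.6%), with a median of -0.057 (all probes, -0.034). In tubular minus small spherical arrays 19 were below 0 (all probes, 59.3%), with a median of -0.10 (all probes, -0.058). Filamentous minus large spherical arrays had a median of 0.020 (all probes, -0.014). These medians are descriptions and carry no test, and 5 of the 6, all but that of tubular minus small spherical arrays, changed sign under at least 1 other processing setting.

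**Figure D1:**
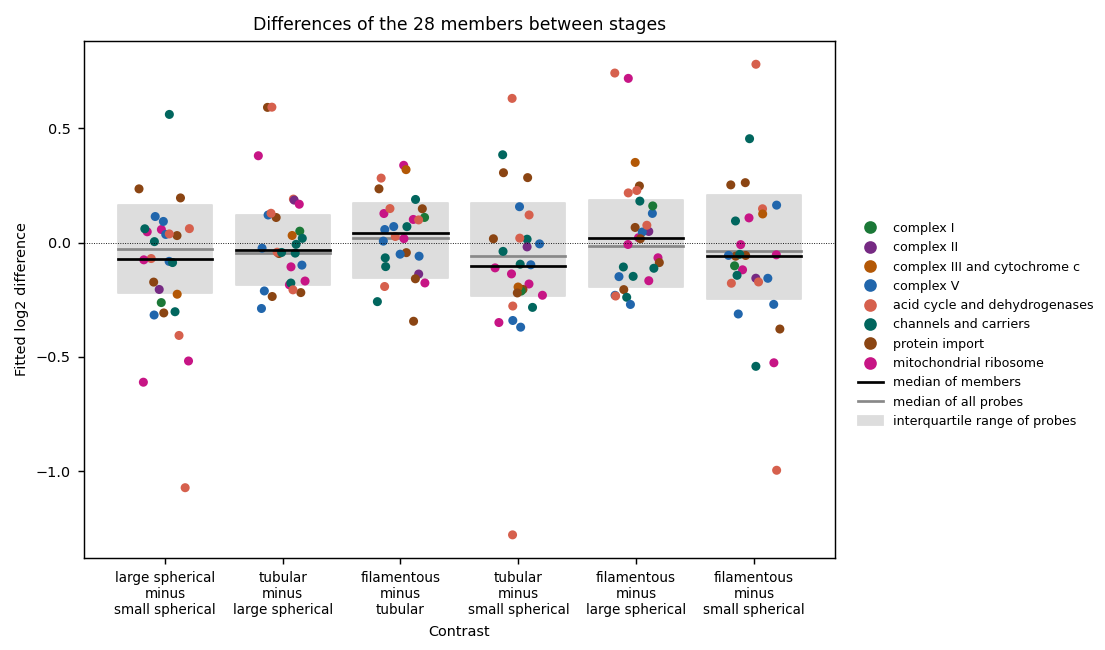
Fitted log2 differences of the 28 members (points, coloured by role) in the 6 contrasts between stages, with the median of the members (black line), the median of all 1014 probes (grey line) and the interquartile range of all probes (grey band). The member medians run from -0.10 to 0.042, beside probe medians of -0.058 and 0.022 in the same contrasts.

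How much change the arrays could have missed differs from gene to gene. Between filamentous and small spherical arrays the 95% interval of the difference lay within -1 to 1 on the log2 scale, that is, within 2-fold either way, for 20 of the 28 members, and for 65.7% of all probes. The 8 whose interval reached further were ATP5O, DLD, MRPS17, SLC25A33, SUCLG1, TIMM13, TIMM21 and TOMM5. A 2-fold difference in at least one direction thus lies inside the interval of each of these 8. Between large and small spherical arrays 20 intervals lay within these limits (all probes, 67.3%), between tubular and large spherical 22 (all probes, 74.8%), and between filamentous and tubular 24 (all probes, 73.1%). SUCLG1, TIMM13, TIMM21 and TOMM5 reached past the limits in each of the 6 contrasts.

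**Figure D2:**
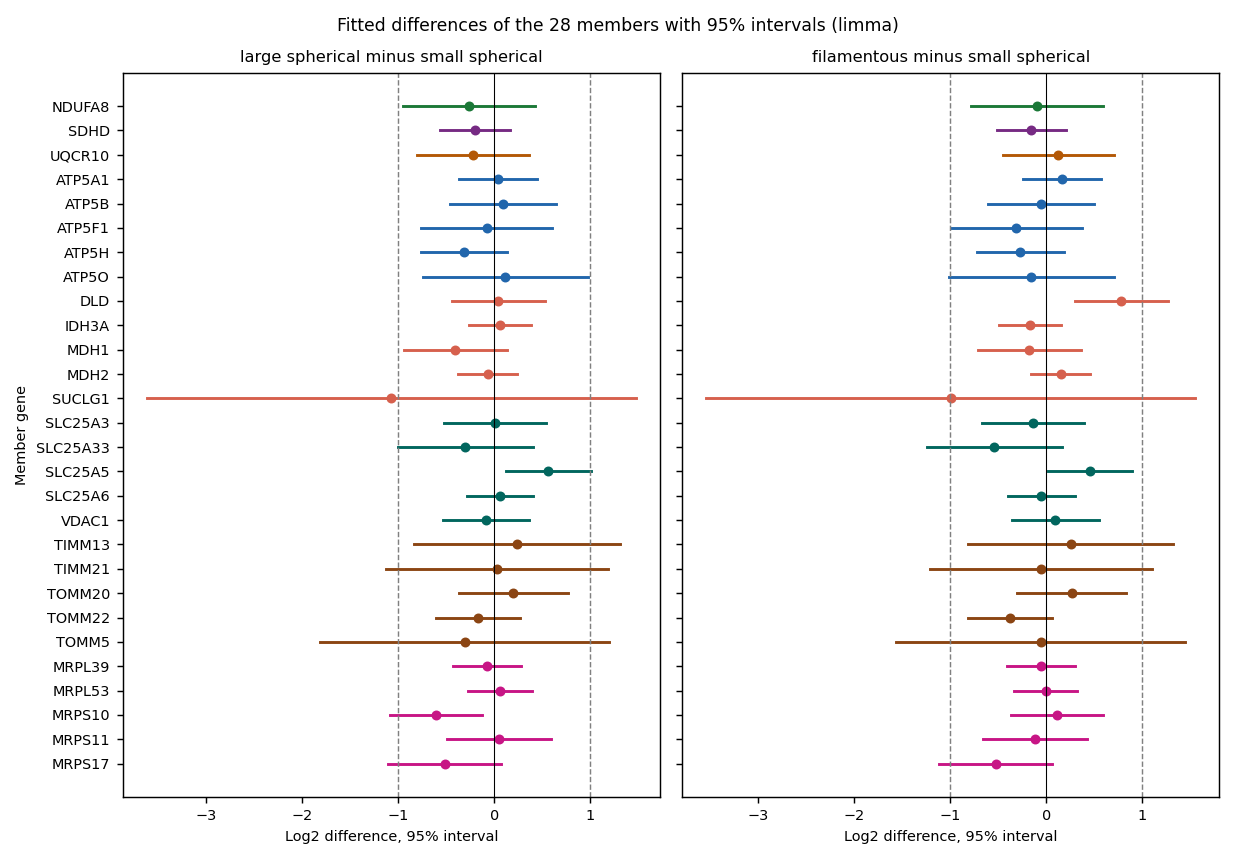
Fitted log2 difference (point) and 95% interval (line) of each member between large and small spherical arrays (left) and between filamentous and small spherical arrays (right), with dashed lines at -1 and 1. DLD lies at 0.78 in the right panel and SLC25A5 at 0.56 in the left, and the widest interval is that of the dim SUCLG1.

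Among the enzymes of the acid cycle, DLD had the largest F of all members. It encodes dihydrolipoamide dehydrogenase, the subunit that the pyruvate, oxoglutarate and branched-chain dehydrogenase complexes share. DLD read 47.7, 51.0, 39.3 and 47.5 on the small spherical arrays, 31.6, 59.7, 71.1 and 37.7 on the large spherical, 75.1, 72.5, 81.1 and 59.2 on the tubular and 93.7, 69.4, 81.8 and 74.2 on the filamentous arrays. Mean intensities, in the order of the stages, were 46.4 ± 4.95, 50.0 ± 18.5, 72.0 ± 9.25 and 79.8 ± 10.6 (SD, n = 4). Every tubular and every filamentous array lay above the highest small spherical array (all probes, 4.54% and 4.54%, and DLD alone among the members), while the large spherical arrays spread over both ranges. In filamentous minus small spherical arrays the log2 difference was 0.78 ± 0.23 (SE), a fold of 1.72, with a 95% interval of 0.30 to 1.26 (limma, adjusted p = 0.140). For the tubular stage it was 0.63 ± 0.23 (SE) (adjusted p = 0.209), and from large spherical to tubular arrays 0.59 ± 0.23 (SE) (adjusted p = 0.999). None of these passed.

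A linear trend over the ordered stages gave DLD a slope of 0.29 ± 0.072 (SE) on the log2 scale per stage, with a 95% interval of 0.14 to 0.45 and an unadjusted p of 0.000969 in the limma fit. After adjustment it missed the threshold (limma, adjusted p = 0.0655), in a test that called 10 of 1014 probes (0.986%) and 0 members. DLD was the 1 member with an unadjusted p below 0.05 in the trend (all probes, 14.2%). It passed in 3 of 28 alternatives: without large spherical replicate 3 (adjusted p = 0.0342), with an offset before log2 (0.0436) and without the dimmest 25% of probes (0.0452), over a range of 0.0342 to 0.178. On the 12 arrays numbered 2 to 4 the slope was 0.25 (adjusted p = 0.178), and leaving out both small spherical replicate 3 and filamentous replicate 1 gave 0.25 (adjusted p = 0.154). Means of markers of other tissues of the conceptus lay in both directions over the same interval. The summed intensity of the 4 measured mesoderm markers (T, VIM, KDR and BMP4) was 134 to 149 on small spherical and 165 to 194 on filamentous arrays, and that of the 5 hypoblast and yolk sac markers (AFP, APOA1, RBP4, TF and FN1) 303 to 424 and 436 to 592. VIM, KDR, APOA1, RBP4 and FN1 had higher means on the filamentous arrays, and T, BMP4, AFP and TF had lower ones, with TF at 26.6 ± 6.31 and 11.5 ± 5.47 (SD, n = 4). No marker of these lists passed between those stages, and their part in the DLD values was not tested.

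The other members grouped by symbol with the acid cycle passed in no contrast. MDH2 read 95.9, 86.1, 90.8 and 82.4 on the small spherical arrays, 86.4, 79.7, 88.5 and 83.7 on the large spherical, 104, 99.6, 89.8 and 92.6 on the tubular and 83.5, 98.3, 127 and 89.4 on the filamentous arrays. MDH2 is the mitochondrial malate dehydrogenase, and every tubular array lay above every large spherical one, by a log2 difference of 0.19 ± 0.15 (SE) that did not pass (adjusted p = 0.999). It was the 1 member of 28 whose arrays did not overlap upward in that step, where 1.18% of all probes did so, and with a trend along probe number removed its difference was -0.10. IDH3A read 53.0, 54.2, 64.1 and 62.8 on the small spherical arrays, 69.9, 59.7, 57.8 and 56.9 on the large spherical, 51.3, 59.0, 63.9 and 63.3 on the tubular and 46.7, 57.9, 60.4 and 44.0 on the filamentous arrays. IDH3A, the catalytic subunit of the NAD-dependent isocitrate dehydrogenase, had overlapping arrays in all stages, and its difference of filamentous minus large spherical arrays was -0.23 ± 0.15 (SE) (adjusted p = 0.811). MDH1 read 37.0, 47.8, 55.5 and 54.1 on the small spherical arrays, 24.3, 44.7, 28.4 and 55.9 on the large spherical, 29.8, 37.1, 46.6 and 47.8 on the tubular and 36.4, 43.4, 46.6 and 44.0 on the filamentous arrays. MDH1, the cytosolic partner of MDH2 in the malate shuttle, had overlapping arrays too, with a difference of -0.41 ± 0.25 (SE) in the first step (adjusted p = 0.719). SUCLG1, a subunit of succinate-CoA ligase, ranged so widely between replicates that its interval between filamentous and small spherical arrays ran from -3.54 to 1.55.

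**Figure D3:**
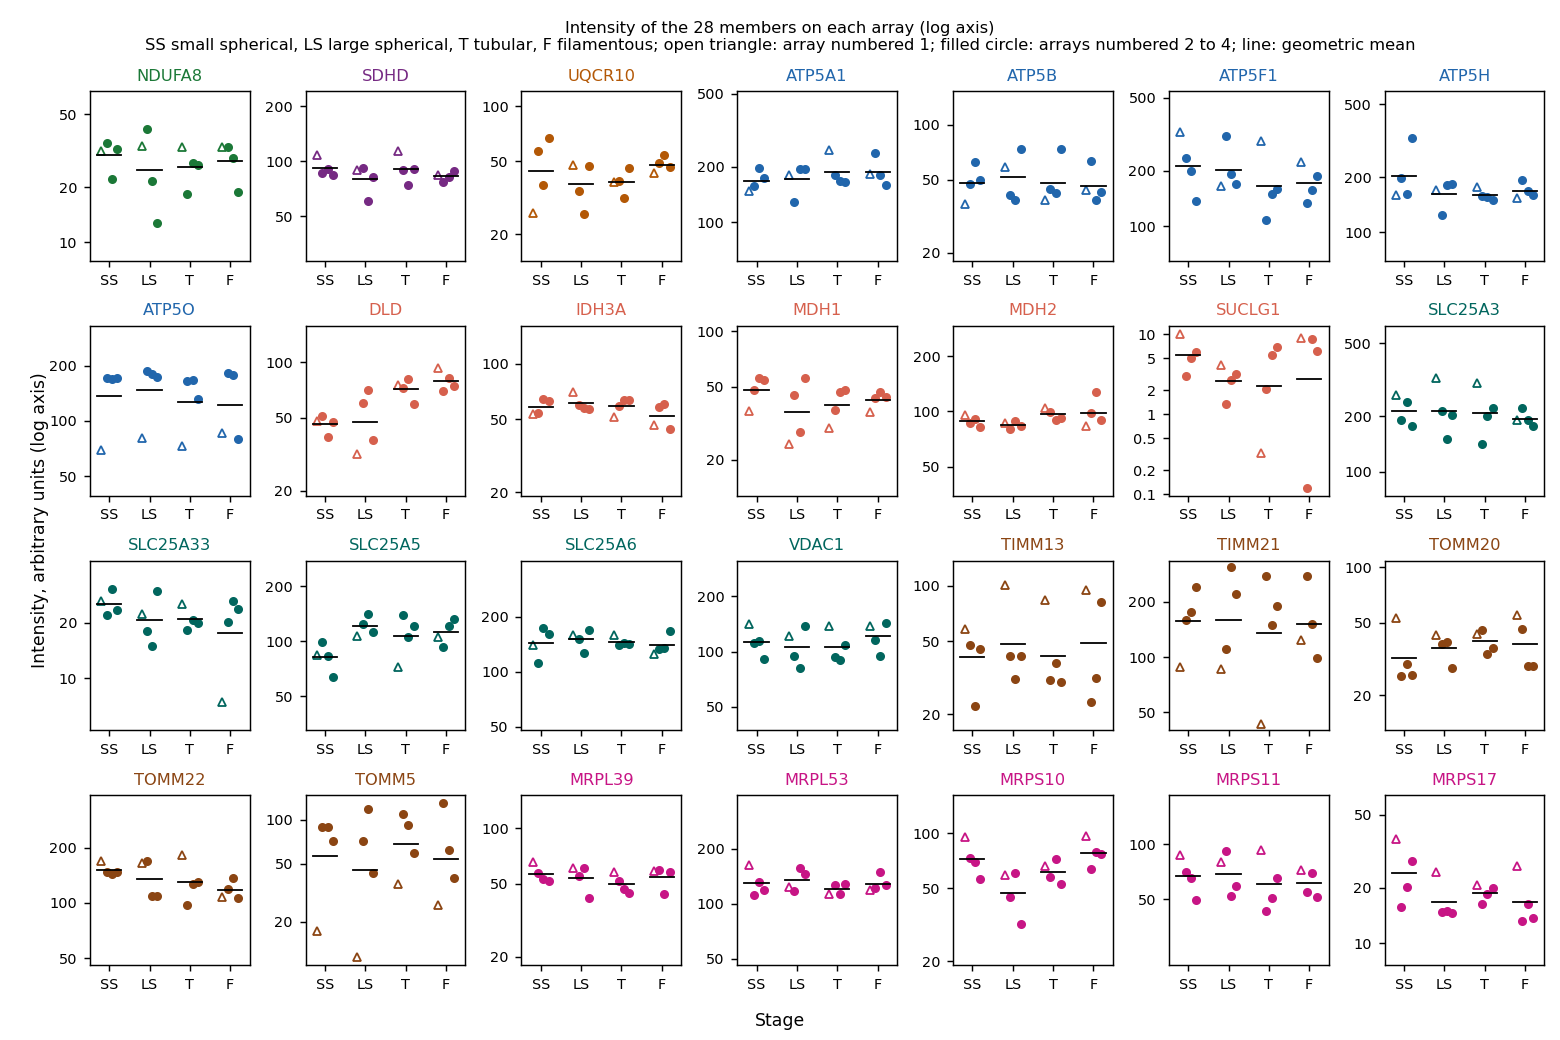
Intensity of each of the 28 members on every array (log axis), by stage, with open triangles for the array numbered 1 of each stage, filled circles for the other 3 and a line at the geometric mean. The elongated stages of DLD sit above its small spherical arrays, and the triangles of TOMM5 sit below all its circles.

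Of the channels and carriers, SLC25A5 had the highest difference of all members in the first growth step. It encodes adenine nucleotide translocase 2, which exchanges ADP for ATP across the inner membrane. SLC25A5 read 84.3, 98.9, 83.2 and 63.9 on the small spherical arrays, 106, 125, 141 and 113 on the large spherical, 72.8, 139, 105 and 121 on the tubular and 106, 92.6, 121 and 132 on the filamentous arrays. Every large spherical array exceeded every small spherical one, and SLC25A5 was the 1 member of 28 for which that was so, against 3.85% of all probes. Means were 82.6 ± 14.4 and 121 ± 15.0 (intensity, SD, n = 4), a log2 difference of 0.56 ± 0.21 (SE) and a fold of 1.48, with a 95% interval of 0.12 to 1.00. It did not pass (limma, adjusted p = 0.290, 0.169 to 0.673 over 29 alternatives). On the 12 arrays numbered 2 to 4 the difference was 0.64 (adjusted p = 0.261). Later stages overlapped both, and the difference of filamentous minus small spherical arrays was 0.45 ± 0.21 (SE) (adjusted p = 0.328).

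SLC25A6, which encodes another adenine nucleotide translocase, read 112 to 173 over the 16 arrays, with stage means of 146, 151, 146 and 140.2 in the order of the stages. Its difference in the first step was 0.061 ± 0.16 (SE), with an interval of -0.28 to 0.41 beside 0.12 to 1.00 for SLC25A5. The intervals overlap, and whether the translocases differed from each other was not tested. The coding sequences of these translocases are alike, so a cDNA spot can take up RNA of both. SLC25A3, the phosphate carrier, had 2 probes. The brighter read 141 to 325 and the other 104 to 247, and their differences had the same sign in each of the 6 contrasts, with -0.14 and -0.23 between filamentous and small spherical arrays. VDAC1, the channel of the outer membrane, read 81.8 to 142, with a difference of 0.095 ± 0.21 (SE) over that interval. SLC25A33 read 26.2, 22.2, 30.8 and 23.5 on the small spherical arrays, 22.4, 18.0, 15.0 and 30.0 on the large spherical, 25.2, 18.4, 20.7 and 20.1 on the tubular and 7.36, 20.3, 26.4 and 23.8 on the filamentous arrays. SLC25A33, a pyrimidine nucleotide carrier, was dim, and filamentous replicate 1 was its lowest array. Its difference of filamentous minus small spherical arrays was -0.54 ± 0.33 (SE) (adjusted p = 0.503).

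In the mitochondrial ribosome, MRPS10, a protein of the small subunit, had the second largest F of the members. MRPS10 read 95.9, 73.3, 69.8 and 56.2 on the small spherical arrays, 59.0, 44.7, 60.4 and 31.9 on the large spherical, 66.0, 58.0, 72.5 and 52.7 on the tubular and 96.3, 63.7, 79.3 and 76.8 on the filamentous arrays. Its large spherical arrays were low, and every filamentous array lay above every large spherical one. Stage means were 73.8 ± 16.5, 49.0 ± 13.4, 62.3 ± 8.74 and 79.0 ± 13.4 (intensity, SD, n = 4). Filamentous minus large spherical arrays gave 0.72 ± 0.22 (SE), a fold of 1.65 (limma, adjusted p = 0.610, 0.399 to 0.999 over 29 alternatives), and large minus small spherical arrays -0.61 ± 0.22 (SE) (adjusted p = 0.290). Over the whole interval the difference was 0.11 ± 0.22 (SE). MRPS10 was the 1 member whose filamentous arrays all exceeded the large spherical ones, against 2.86% of all probes. Without large spherical replicate 4, its lowest array, filamentous minus large spherical arrays differed by 0.53.

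The other 4 proteins of this ribosome had overlapping arrays in every pair of stages. MRPS17 read 37.0, 15.8, 20.3 and 27.9 on the small spherical arrays, 24.3, 14.7, 15.0 and 14.7 on the large spherical, 20.7, 16.3, 18.5 and 20.1 on the tubular and 26.2, 13.1, 16.3 and 13.7 on the filamentous arrays. MRPS17, also of the small subunit, was dim, and its highest array was small spherical replicate 1. Its difference in the first step was -0.52 ± 0.28 (SE) (adjusted p = 0.674), and from small spherical to filamentous arrays -0.53 ± 0.28 (SE) (adjusted p = 0.415). MRPS11 read 43.4 to 93.2 over the 16 arrays, with stage means of 68.0, 70.6, 63.3 and 62.0. For the large subunit, MRPL39 read 41.5 to 65.5 and MRPL53 112 to 162, with intervals between filamentous and small spherical arrays of -0.41 to 0.30 and -0.34 to 0.32 on the log2 scale. MRPL53 had the narrowest range of the 28 members, a 1.45-fold span from its lowest to its highest array. In tubular minus small spherical arrays all 5 ribosomal members had a difference below 0 (all probes, 59.3%), with a median of -0.18 (all probes, -0.058). In each of the other contrasts their signs were mixed. In filamentous minus tubular arrays 4 of the 5 were above 0 (all probes, 54.1%), with a median of 0.10 (all probes, 0.022).

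The respiratory complexes I to III were each measured through 1 subunit. NDUFA8 read 31.6, 35.0, 22.2 and 32.3 on the small spherical arrays, 33.4, 41.4, 21.7 and 12.8 on the large spherical, 33.2, 18.4, 27.1 and 26.6 on the tubular and 33.0, 33.3, 28.9 and 18.8 on the filamentous arrays. NDUFA8 is an accessory subunit of complex I, and its arrays overlapped in all stages, with a difference of -0.10 ± 0.32 (SE) between filamentous and small spherical arrays (adjusted p = 0.953). SDHD read 108, 86.1, 90.8 and 84.6 on the small spherical arrays, 90.0, 91.4, 60.4 and 81.8 on the large spherical, 114, 89.2, 74.6 and 90.2 on the tubular and 84.3, 76.7, 81.8 and 88.1 on the filamentous arrays. SDHD is a membrane anchor of succinate dehydrogenase, and its interval over the same arrays was -0.52 to 0.21. UQCR10 read 26.2, 57.4, 37.4 and 67.1 on the small spherical arrays, 48.0, 34.7, 25.7 and 47.3 on the large spherical, 38.8, 39.2, 31.5 and 46.2 on the tubular and 43.3, 49.2, 54.1 and 46.5 on the filamentous arrays. UQCR10 is a small subunit of the cytochrome bc1 complex, and its filamentous arrays had the narrowest spread of its 4 stages. From tubular to filamentous arrays it differed by 0.32 ± 0.27 (SE) (adjusted p = 0.994), which was among the 3 smallest p of the members in that step and did not pass.

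The ATP synthase was measured through 5 subunits, in the catalytic head (ATP5A1 and ATP5B, alpha and beta) and in the peripheral stalk (ATP5F1, ATP5H and ATP5O). ATP5F1 read 324, 236, 199.5 and 137 on the small spherical arrays, 165, 311, 191 and 170.1 on the large spherical, 292, 108, 150.2 and 159 on the tubular and 225, 133, 157 and 188 on the filamentous arrays. The stages overlapped throughout, with a difference of -0.31 ± 0.32 (SE) between filamentous and small spherical arrays (adjusted p = 0.784). ATP5H read 160.2, 198, 162 and 329 on the small spherical arrays, 170.4, 125, 181 and 183 on the large spherical, 177, 158, 157 and 150.5 on the tubular and 154, 194, 167 and 160.0 on the filamentous arrays. Small spherical replicate 4 was the highest array of ATP5H, and its difference of tubular minus small spherical arrays was -0.34 ± 0.21 (SE) (adjusted p = 0.631), or -0.11 without that array. In the head, ATP5A1 read 128 to 247 with stage means of 169, 175, 189.9 and 190.2, and ATP5B 37.0 to 74.1 with means of 49.2, 53.4, 49.8 and 47.4. Their intervals between filamentous and small spherical arrays were -0.24 to 0.57 and -0.61 to 0.50. ATP5A1 was the only 1 of the 5 subunits with a difference above 0 over that interval (all probes, 45.6%). Its difference was 0.16 ± 0.19 (SE), and none of the 5 passed.

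Protein import was measured through receptors and small subunits of the outer membrane complex (TOMM20, TOMM22 and TOMM5) and through TIMM13 and TIMM21 of the inner membrane side. TOMM22 read 170.0, 147, 144 and 148 on the small spherical arrays, 165, 169.7, 109 and 109 on the large spherical, 181, 97.5, 126 and 129 on the tubular and 108, 119, 136 and 107 on the filamentous arrays. All 4 filamentous arrays of TOMM22, a receptor for presequence proteins, lay below every small spherical array, as was so for 1 of 28 members and 2.66% of all probes. Its log2 difference was -0.38 ± 0.20 (SE), a 95% interval of -0.81 to 0.058, and did not pass (limma, adjusted p = 0.439). TOMM20 read 53.0, 25.4, 29.8 and 25.7 on the small spherical arrays, 42.5, 38.0, 39.1 and 28.1 on the large spherical, 43.4, 45.5, 33.6 and 36.4 on the tubular and 55.3, 46.3, 28.9 and 28.8 on the filamentous arrays. TOMM20, the other receptor, had overlapping stages and a difference of 0.26 ± 0.27 (SE) over the same interval (adjusted p = 0.777). TIMM21, which couples import to the respiratory chain, ranged over 43.4 to 309, and TIMM13, a chaperone of the intermembrane space, over 22.2 to 101. Their F tests gave adjusted p of 1.00 and 1.00.

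For several members the spread within a stage followed the replicate number of the titles, with each stage holding 1 array numbered 1. TOMM5 read 17.3, 89.3, 89.9 and 71.5 on the small spherical arrays, 11.5, 71.4, 119 and 43.4 on the large spherical, 36.6, 110.1, 91.9 and 59.2 on the tubular and 26.2, 130.1, 61.7 and 40.2 on the filamentous arrays. TOMM5, a small subunit of the outer membrane pore, was thus lower on every array numbered 1 (11.5 to 36.6) than on any of the other 12 (40.2 to 130.1), 3.67-fold in geometric means. It was the 1 member of 28 with that separation, against 2.76% of all probes, and 0 members were separated upward (all probes, 2.47%). ATP5O read 69.1, 171, 170.0 and 172 on the small spherical arrays, 80.9, 186, 181 and 174 on the large spherical, 72.8, 165, 167 and 131 on the tubular and 86.0, 184, 179 and 79.3 on the filamentous arrays. ATP5O, the stalk subunit that confers oligomycin sensitivity, was low on the arrays numbered 1 and on filamentous replicate 4. TIMM21 read 43.4 to 124 on the 4 arrays numbered 1 and 99.5 to 309 on the other 12. TIMM13 ran the other way, with 58.4 to 101 on the 4 arrays numbered 1 and 22.2 to 81.8 on the other 12. These 4 were the members whose mean log2 difference of arrays numbered 1 was over 1 in size, 4 of 28 beside 7.5% of all probes. No test was run on the number, which the labels do not explain, and these members were singled out after their values were seen. Within the 12 other arrays no member passed in any of the 6 contrasts, the trend or the F test.

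**Figure D4:**
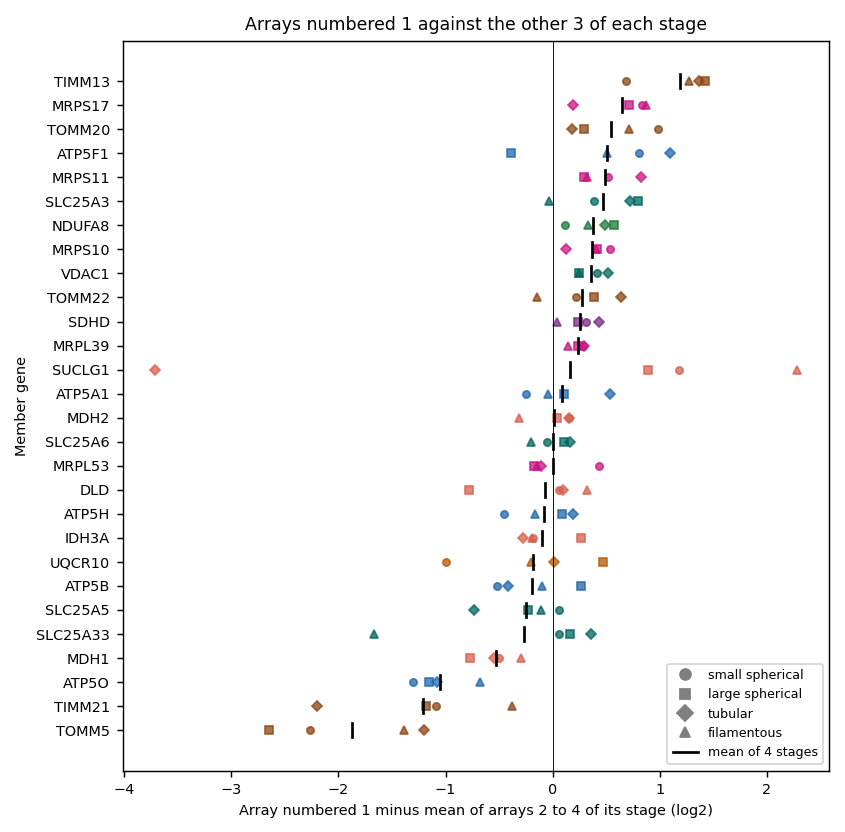
Log2 intensity of the array numbered 1 minus the mean of the other 3 arrays of its stage, for each member (rows) and stage (symbols), with the mean of the 4 stages as a black line. TOMM5 has the lowest mean, -1.88, and TIMM13 the highest, 1.19.

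Other genes of mitochondrial proteins gave a reference for the members. Of a list of 94 genes drawn up by name, 13 were measured, and 1 of the 13 passed the F test (all probes, 0.394%). It was STAR, which delivers cholesterol to the inner membrane. STAR rose from 40.0 ± 7.89 in small spherical to 135 ± 38.6 in large spherical embryos (intensity, SD, n = 4), a log2 difference of 1.72 ± 0.23 (SE, limma adjusted p = 0.00207). It also passed in the contrasts of tubular and filamentous with small spherical arrays and in the trend. Its interval in the first step, 1.23 to 2.21, lay above the point estimate of each of the 28 members. The members have intervals too, and 8 of these reached past -1 or 1 in that step. Whether STAR differed from any member was not tested. CYP11A1, the enzyme in the inner membrane that uses this cholesterol, had filamentous arrays that all exceeded the small spherical ones (all probes, 4.54%). Its difference was 1.19 ± 0.31 and did not pass (limma, adjusted p = 0.0970).

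The proteins of general upkeep on that list did not pass between filamentous and small spherical arrays. The chaperonins HSPD1 and HSPE1 read 157 ± 24.9 and 158 ± 47.2 on small spherical and 142 ± 9.61 and 112 ± 14.8 on filamentous arrays. PHB2, a prohibitin of the inner membrane, read 124 ± 7.72 and 109 ± 18.9, and PMPCB, a subunit of the peptidase that cuts presequences, 229 ± 55.1 and 199 ± 74.6. GOT2, the mitochondrial aspartate aminotransferase, read 180.0 ± 47.8 and 132 ± 24.0 (log2 -0.42 ± 0.23, adjusted p = 0.443). In the oxidation of fatty acids, ACADM differed by 0.050 ± 0.29 and HADHB, which was dim, by -0.91 ± 0.73. The rest of the list did not pass in this contrast either. On small spherical and filamentous arrays CYB5B read 159 ± 91.1 and 340 ± 127, and BNIP3L 214 ± 25.2 and 218 ± 17.8. PARK7 read 60.7 ± 33.3 and 59.9 ± 34.8, and MCL1 77.3 ± 9.46 and 81.0 ± 12.5. Over the 13 genes, 7 differences were above 0 in this contrast (all probes, 45.6%), with a median of 0.027 (all probes, -0.034).

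Markers of the conceptus's own cells were checked beside these values. The 5 measured trophectoderm markers (KRT8, KRT18, KRT19, PLAC1 and CDH1) had a summed intensity of 416 to 565 on small spherical and 481 to 576 on filamentous arrays, a sum that includes KRT18 at a high level (269 ± 39.9 and 250.4 ± 47.4, SD, n = 4). KRT19 read 93.6 ± 26.6 and 135 ± 30.6 in the same order, and CDH1 89.6 ± 17.2 and 84.3 ± 17.5. KRT8 and PLAC1 were dim on small spherical arrays (19.5 ± 4.60 and 12.1 ± 4.20) and read 23.9 ± 8.47 and 33.7 ± 10.9 on filamentous ones. The 1 measured marker of maternal blood, CD3E, read 1.79 to 3.00 and 1.71 to 3.63, and both measured markers of the endometrium (ACP5 and PGR) summed to 22.2 to 32.9 and 9.59 to 34.8. No probe with a single symbol named a marker of the epiblast. PLAC1 was the 1 marker of these lists that passed. It was called higher on filamentous and on tubular than on small spherical arrays, and in the trend.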

How the data were processed

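The deposited table held 1 linear intensity per probe for 1015 probes on 16 arrays. For the scanning, background correction and normalization behind the authors' intensities, no steps are named: not given in the sources used here. Medians of the arrays lay within 0.185 (log2) of each other, below a limit of 0.2, so values were taken to log2 with no offset or further normalization. A probe with one value on every array was left out, leaving 1014. Single symbols came from the platform annotation (676 probes with 1, 15 with several, 324 with none), and all 29 member probes were found in the RefSeq gene table by Entrez identifier. A gene with 2 probes is given by the one with the higher mean log2.

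Stage means were estimated from the 16 arrays by limma's linear models and moderated tests (limma 3.58.1, R 4.3.3), with an F test, 6 contrasts and a linear trend, two-sided, adjusted by Benjamini-Hochberg over all probes at 0.05. The fit was tested on simulated data. Means and SDs are of intensities, and folds and differences come from the log2 fit. Values on every array are given for the 2 members with the largest F in each role, the 10 with the largest F over all, the 3 with the smallest p in each contrast and the trend, and DLD, with TOMM5 and ATP5O added after their values were seen. Alternatives tried were 3 normalizations (centring on the median, quantile, cyclic loess), an offset, a filter on dim probes, a replicate block, fits of just the stages compared, weights for arrays, a trended robust prior, the mean of a gene's probes, subsets of arrays and each array left out. The members, lists and tests were chosen with earlier results of these data known. Plots were drawn with matplotlib 3.10.9.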

Additional observations from a re-analysis of the deposited data

Results flagged for a closer look

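Some arrays stood far from the other 3 of their stage, by the gap to the nearest array over the whole range of the stage. This was so in 9 of 112 groups of 4 arrays, where chance gives about 1 in 20, and 7 of the 9 arrays were numbered 1. The same shares over all probes were not counted, so neither count sets the members apart from the rest of the membrane. ATP5O was low on small spherical replicate 1 (69.1 against 170.0 to 172 on the others) and on large spherical replicate 1 (80.9 against 174 to 186). TIMM13 was high on large spherical replicate 1 (101 against 31.0 to 41.5) and on tubular replicate 1 (84.1 against 29.9 to 37.9). On small spherical replicate 1, TOMM20 (53.0 against 25.4 to 29.8) and TOMM22 (170.0 against 144 to 148) were high, and on large spherical replicate 1 MRPS17 was (24.3 against 14.7 to 15.0). Outside the arrays numbered 1, ATP5B was high on tubular replicate 4 (73.9 against 38.8 to 44.4) and MRPL39 low on filamentous replicate 3 (44.0 against 57.9 to 59.3).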

How the results depend on the processing

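No member passed in the F test or in any of the 6 contrasts under any alternative run, and the count of members in the ordered trend was 0 or 1. It was 1, DLD, with an offset of 10 before log2, without the dimmest 25% of probes and without large spherical replicate 3, and ran from 0 to 1 as single arrays were left out. Of the 6 medians of the members, 5 changed sign under at least 1 alternative (17 of 174 values), so their directions are not stable. They ranged over -0.11 to 0.018 for large minus small spherical arrays, -0.082 to 0.039 for tubular minus large spherical, -0.016 to 0.089 for filamentous minus tubular, -0.043 to 0.060 for filamentous minus large spherical and -0.11 to 0.013 for filamentous minus small spherical. That of tubular minus small spherical arrays kept its sign (-0.17 to -0.039). Of 604 differences and slopes of the members with the smallest p in each test, 1 changed sign: MDH2, tubular minus large spherical, was -0.10 once a smooth trend along probe number was removed, an alternative chosen after the data had been seen. The cause was not tested. With the replicate number as a block, 0 members passed in each test, and DLD had a trend of 0.29 (adjusted p = 0.0712). Deviations of same-numbered arrays from their stage means were correlated over all probes. They correlated above 0.1 in all 4 pairs for 1 of the 6 contrasts, large minus small spherical (0.219 to 0.495), and above 0 in all 4 pairs for 3. Pairs of arrays numbered 1 correlated at 0.270 to 0.495 over the 6 contrasts, and pairs of the other numbers at -0.117 to 0.352. The block changed no call of a member. The spread between 4 arrays limits what dim members such as SUCLG1 can show.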
